A study of Homo sapiens with 39 samples.

Results

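The transcripts described here are those of 10 genes of haem breakdown and iron handling: HMOX1, HMOX2, BLVRA, BLVRB, FTL, TFRC, SLC40A1, IREB2, ACO1 and NCOA4. They were chosen by name. The probe annotation used here named a probe for 9 of the 10, and all 9 passed the filter on low values among 18555 genes tested. IREB2 is not analysed here. The series measured 39 Illumina bead arrays of a pair of human lung cancer cell lines. H209 (NCI-H209) is a small cell, neuroendocrine line with 19 arrays. H838 (NCI-H838) is an adenocarcinoma line with 20 arrays. Cells received 100 nM DKFZ-608, a compound that the series' title says inhibits TRXR1 (thioredoxin reductase 1) without a covalent bond, in 6.9 µM cyclodextrin, or cyclodextrin alone, which is called vehicle here. Both arms were collected at 4, 8 and 24 h, and vehicle alone was also collected at 0 h. In all, 16 arrays were treated and 23 were vehicle. Groups held 3 arrays, except for 2 arrays each in both H209 arms at 8 h and in the treated H838 arm at 24 h. Nothing in the labels tells if a group's replicates came from different cultures. The p-values therefore cover only the spread between these samples, which may be technical. In bulk RNA of this kind, fewer cells of a type and less RNA per cell cannot be told apart.

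Haem oxygenase opens the haem ring and releases biliverdin, carbon monoxide and ferrous iron. HMOX1 is the inducible form and HMOX2 the constitutive form. BLVRA and BLVRB are NADPH-dependent biliverdin reductases, and BLVRB also reduces flavins. FTL is the light chain of ferritin, the shell that stores iron, and NCOA4 is the receptor that takes ferritin to the lysosome for breakdown. TFRC imports transferrin-bound iron, and SLC40A1 (ferroportin) exports iron. ACO1 (iron regulatory protein 1) and IREB2 (iron regulatory protein 2) bind iron-responsive elements in transcripts such as those of FTL and TFRC, so that much of the control of these genes acts on translation and RNA stability. HMOX1 and FTL are also known targets of NRF2, the transcription factor released by oxidants and by electrophiles.

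The stretches below belong to BLVRB and FTL, the members other than HMOX1 that passed the test in H209 when 4 arrays were left out. The sequences come from RefSeq on GRCh38.p14, where windows were matched for 9 of the 10 members. HMOX1 has none here. The BLVRB stretch is the 250 bases before the gene's start, chr19:40465746-40465995 on the minus strand, with capitals on the letters TGCGCNC of the metal response element read on the opposite strand, 182 bases before the start.
BLVRB: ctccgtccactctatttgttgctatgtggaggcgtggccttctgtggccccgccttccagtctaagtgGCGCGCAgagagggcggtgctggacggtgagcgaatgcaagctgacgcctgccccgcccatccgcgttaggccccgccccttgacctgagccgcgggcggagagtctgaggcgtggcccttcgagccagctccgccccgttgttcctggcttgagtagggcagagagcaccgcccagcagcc
The FTL stretch is the 250 bases before its start, chr19:48965059-48965308 on the plus strand, with capitals on TTCNNGAA, a heat shock element arranged tail to tail, 245 bases before the start.
FTL: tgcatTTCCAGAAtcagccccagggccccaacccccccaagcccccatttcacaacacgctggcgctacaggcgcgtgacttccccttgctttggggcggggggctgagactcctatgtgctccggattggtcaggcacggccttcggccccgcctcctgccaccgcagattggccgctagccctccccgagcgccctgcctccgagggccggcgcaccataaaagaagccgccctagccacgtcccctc
The short FTL stretch is the part of the transcript's start that holds the loop letters CAGTGN of the iron-responsive element, in capitals, at chr19:48965329-48965358 on the plus strand.
FTL iron-responsive element: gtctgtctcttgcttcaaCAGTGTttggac
Over 35116 windows of the same length and on both strands, 16.8% held TGCGCNC, 9.87% TGCACNC (another metal response element form), 6.62% TTCNNGAA, 5.78% GAANNTTC (the head to head heat shock form) and 10.9% TGACNNNGC (the antioxidant response element). The loop letters were in 6.36% of the 50 bases after a start, on the sense strand. TGACNNNGC is not in these windows of BLVRB or FTL. These matches are descriptions of letters only.

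The deposited intensities had nearly the same middle in every array, with array medians from 92.6 to 94.2. The number of arrays, not a read depth, limits the precision. The marker genes followed the labels in part. Summed over 7 neuroendocrine genes (INSM1, CHGA, CHGB, SYP, DLL3, NCAM1 and GRP), intensity was 17057 to 22227 in H209 and 981 to 1134 in H838. Summed over 9 genes listed for adenocarcinoma and other non-neuroendocrine lines it was 3802 to 5577 in H209 and 9410 to 12877 in H838, with VIM, YAP1, AXL, CD44 and CAV1 higher in H838. The keratins of that list went against it: median intensity in H209 and H838 was 2099 and 86.8 for KRT19, 1626 and 636 for KRT8, 183 and 130 for KRT18, and 219 and 222 for KRT7. Erythroid transcripts, which mark red cell precursors, stayed at 75 to 112 in both lines for HBA1, HBB, HBG1 and ALAS2, near the median of all probes. In 4 H209 arrays the order of treated and vehicle in HMOX1 was mirrored against the rest of their groups: vehicle 8 h replicate 2, DKFZ-608 8 h replicate 2, vehicle 24 h replicate 3 and DKFZ-608 24 h replicate 3. Vehicle 24 h replicate 3 is also the array whose title gives 24 h and whose time label gives 8 h, and the titles were used. Whether labels were exchanged between arms in these 4 arrays was not tested, and if they were, the values with all arrays at 8 and 24 h mix both arms. Results for H209 are therefore given with all arrays and without these 4. HMOX1 is one of the genes by which the 4 arrays stand apart, so its values without them are a description, and the p-values of the other genes without them are not independent evidence. The spread of the 4 arrays also enters every test that uses all arrays.

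HMOX1 was the only member that passed the test in any treatment comparison with all arrays. In H209 at 4 h, its intensity was 374, 292 and 361 in the vehicle arrays and 5583, 4626 and 3762 in the DKFZ-608 arrays. Every treated array lay above every vehicle array. The change was 3.76 ± 0.85 on the log2 scale (SE of the limma fit over all arrays, 3 against 3), which is 13.5-fold, with a Benjamini-Hochberg adjusted p of 0.0239 over 18555 genes. At this time 1 of 9 members passed, against 0.652% of all genes. Limma's adjusted p passed the threshold with all 39 arrays but was 0.331 (SE 1.16) when the H209 arrays were fitted alone, where 0 of 9 members and 0.146% of genes passed. The size of the change is the same in these fits by construction, since it comes from the same 6 arrays. With the 4 h arrays of H209 alone, a fit chosen after the data were seen, the SE was 0.14 and limma's adjusted p 6.73e-07. Leaving out any 1 of the 6 arrays of this comparison moved limma's adjusted p past the threshold: vehicle replicate 1, 2 or 3 gave 0.0917, 0.110 or 0.0664, and DKFZ-608 replicate 1, 2 or 3 gave 0.0859, 0.110 or 0.0710, with changes between 3.62 and 3.90.

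At the later times the labelled H209 groups overlapped in HMOX1. At 8 h the vehicle arrays had 296 and 5662, and the DKFZ-608 arrays 6542 and 272. At 24 h the vehicle arrays had 220, 216 and 2057, and the DKFZ-608 arrays 1834, 1569 and 177. In both cases 1 array of each arm carried the level of the opposite arm. With all arrays the changes were 0.04 ± 1.04 at 8 h and 0.79 ± 0.85 at 24 h, and the mean over the 3 times was 1.53 ± 0.53, with limma's adjusted p at 0.857 for the mean. Here 0 of 9 members and 0% of genes passed limma's test at 8 h, at 24 h and for the mean, and an unadjusted p under 0.05 was found for 396, 439 and 796 genes.

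Without the 4 arrays, HMOX1 separated treated from vehicle at all 3 times in H209. At 8 and 24 h this was fixed in advance, since the 4 arrays were left out in part for their mirrored HMOX1 levels. At 8 h, with 1 array against 1, any gene would separate. The 9 vehicle arrays ran from 216 to 374 with a median of 296, and the 6 treated arrays from 1569 to 6542 with a median of 4194. The differences were 3.76 ± 0.14 at 4 h, 4.47 ± 0.24 at 8 h (1 array against 1, with the spread borrowed from the other groups) and 2.96 ± 0.17 at 24 h (2 against 2). In fold terms these are 13.5, 22.1 and 7.77. The 24 h difference minus the 4 h one was -0.80 ± 0.22 on the log2 scale and did not pass the test. With all arrays it was -2.96 and did not pass either. This comparison was added after the data were seen. H209 vehicle itself read 344, 309 and 287 at 0 h, 220 and 216 at 24 h in the arrays left in.

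**Figure D1:**
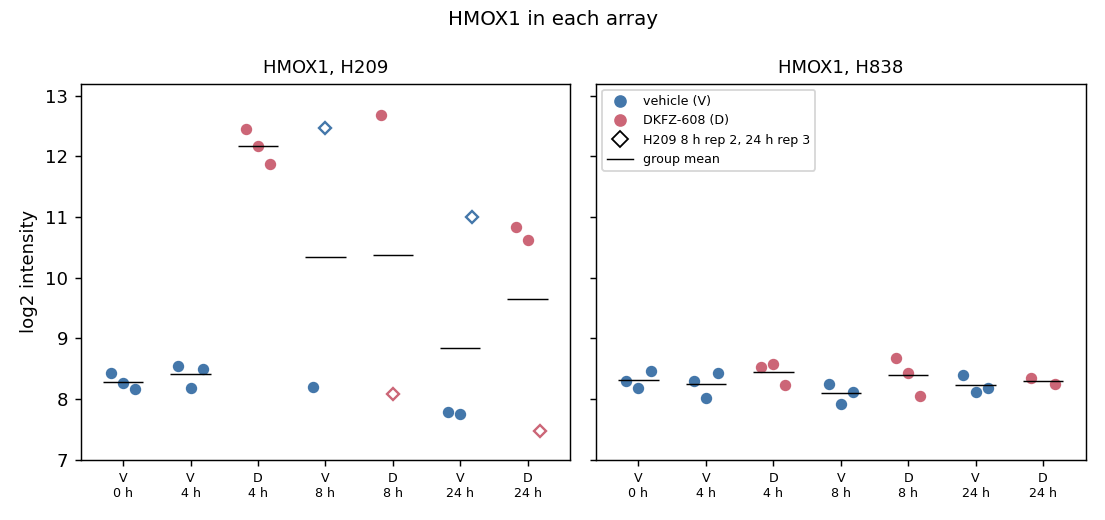
HMOX1 log2 intensity (y axis) in each array of H209 (left) and H838 (right), by treatment and time (x axis). Blue is vehicle, red is DKFZ-608, open diamonds are the 4 H209 arrays named in the text, and lines are group means. The 3 treated H209 arrays at 4 h lie apart from all vehicle arrays at 0 and 4 h, while H838 arrays stay between intensities of 241 and 411.

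In H838, HMOX1 stayed low under both arms. The vehicle arrays had 316, 289 and 353 at 0 h, 315, 260 and 344 at 4 h, 306, 241 and 278 at 8 h, and 336, 279 and 290 at 24 h. The DKFZ-608 arrays had 368, 383 and 300 at 4 h, 411, 346 and 266 at 8 h, and 324 and 303 at 24 h. Treated and vehicle arrays overlapped at each time. The changes were 0.20, 0.29 and 0.06 on the log2 scale, with SEs of 0.85, 0.85 and 0.95 over all arrays and of 0.14, 0.14 and 0.15 over the H838 arrays alone. In the fit of H838 alone, the unadjusted p at 8 h was 0.0422 and limma's adjusted p was 1. The difference between the lines in the response at 4 h (H838 minus H209) was -3.56 ± 1.20, with limma's adjusted p at 0.650 over all arrays, where 0 of 9 members (1 at an unadjusted p under 0.05) and 0.0485% of genes passed. Without the 4 H209 arrays the same difference had an SE of 0.20, and 1 member, HMOX1, and 0.717% of genes passed.

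Ordered by group mean over all arrays, HMOX1 was highest in H209 DKFZ-608 at 4 h (12.17 ± 0.28, SD on the log2 scale, n = 3). H209 DKFZ-608 at 8 h (10.38 ± 3.24, n = 2), H209 vehicle at 8 h (10.34 ± 3.01, n = 2), H209 DKFZ-608 at 24 h (9.64 ± 1.88, n = 3) and H209 vehicle at 24 h (8.85 ± 1.87, n = 3) followed, and these 4 do not differ beyond their spread. The other 9 groups, 7 of H838 and 2 of H209 vehicle, lay between 8.10 and 8.45, with SDs of 0.07 to 0.32, and neighbours among them do not differ beyond it. The order changes in H209 when the 4 arrays are left out: DKFZ-608 at 8 h is then highest at 12.68 (n = 1), before DKFZ-608 at 4 h (12.17) and at 24 h (10.73 ± 0.16, n = 2). The vehicle groups follow at 8.41 (4 h), 8.29 (0 h), 8.21 (8 h, n = 1) and 7.77 ± 0.02 (24 h, n = 2).

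HMOX2, the constitutive haem oxygenase, was dim in all arrays, with intensities from 87 to 127 around a median of 101. The median of all probes was 93.6, so its folds are understated. At 4 h in H209 the vehicle arrays had 89, 89 and 94 and the DKFZ-608 arrays 95, 115 and 97. The groups do not overlap, but the change of 0.17 ± 0.09 did not pass, with limma's adjusted p at 0.729. In the fit without the 4 arrays the changes were 0.17, 0.14 and 0.11 in time order, none past the test.

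BLVRA was well measured and moved little. In H209 at 4 h the vehicle arrays had 1165, 1189 and 1196, and the DKFZ-608 arrays 1021, 1045 and 1021. All treated arrays were lower. The change of -0.20 ± 0.08 did not pass, with limma's adjusted p at 0.437 with all arrays and 0.229 without the 4. At 8 h vehicle had 1090 and 970 and DKFZ-608 1042 and 1077. At 24 h vehicle had 1011, 1046 and 974, and DKFZ-608 882, 893 and 1109. The third replicates at 24 h again ran against their arms, and without the 4 arrays the changes at 8 and 24 h were -0.06 and -0.21, neither past the test. In H838 all 20 arrays lay between 731 and 957.

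Once the 4 arrays were left out, BLVRB was read at separate levels in treated and vehicle H209 arrays at 8 and 24 h. At 8 h this is 1 array against 1, where any gene separates. At 24 h, with 2 against 2, HMOX1, BLVRA, FTL, TFRC, ACO1 and NCOA4 did not overlap either, while HMOX2 and SLC40A1 did. The share over all genes was not counted there, and the arrays left in were chosen in part by HMOX1. This separation is therefore a description and is not read as a trait of the members. In H209 the vehicle arrays had 170, 197 and 211 at 0 h and 208, 193 and 250 at 4 h, and the DKFZ-608 arrays 163, 262 and 253 at 4 h. The groups overlapped at 4 h, with a change of 0.03 ± 0.31. At 8 h vehicle had 200 and 376 and DKFZ-608 398 and 232. At 24 h vehicle had 193, 195 and 669, and DKFZ-608 538, 518 and 286. The arrays at 376, 669, 232 and 286 are the 4 that stand apart.

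With all arrays BLVRB changed by 0.15 ± 0.38 at 8 h and 0.55 ± 0.31 at 24 h, neither past the test. Without the 4 arrays it was higher by 1.00 ± 0.28 at 8 h, which did not pass (limma's adjusted p 0.0682, 1 array against 1), and it rose by 1.44 ± 0.20 at 24 h, 2.72-fold, with limma's adjusted p at 9.85e-06 (2 against 2). The mean over times was 0.83 ± 0.12, with limma's adjusted p at 3.05e-05. The 24 h change exceeded the 4 h change by 1.41 ± 0.25 without the 4 arrays (limma's adjusted p 0.00283), and by 0.52 ± 0.43 with all arrays. With all arrays 0 of 9 members (1, HMOX1, at an unadjusted p under 0.05) and 0.0323% of genes passed this comparison. When the 4 were left out, 1 member, BLVRB, and 0.393% of genes passed this comparison.

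**Figure D2:**
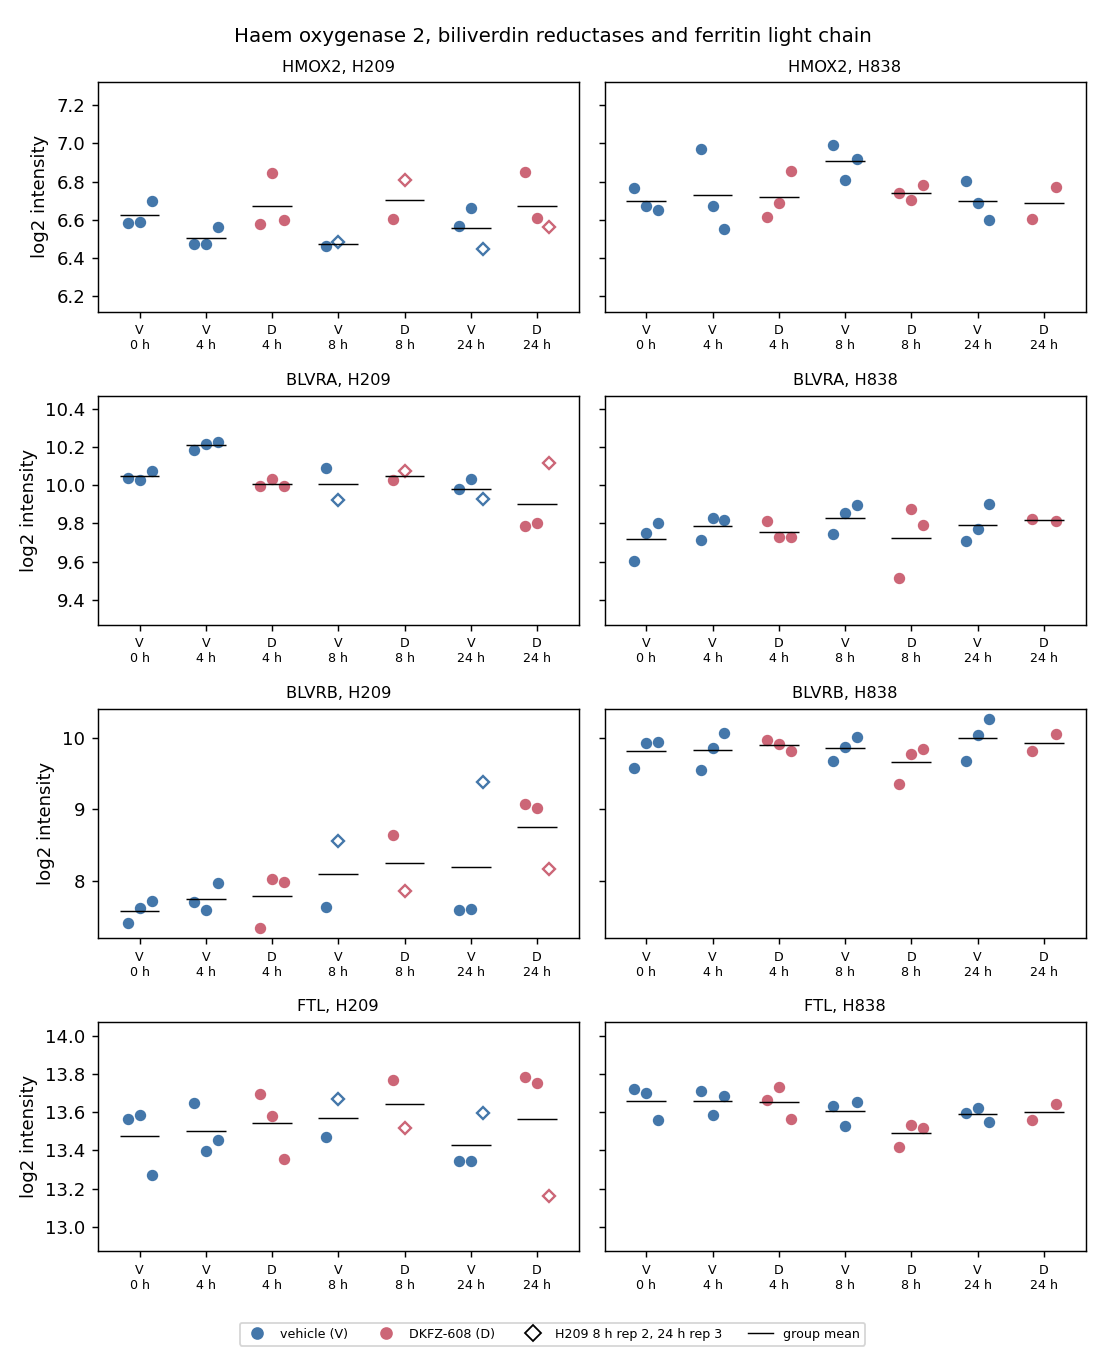
Log2 intensity (y axis) of the enzymes and storage genes in each array by treatment and time (x axis), for each line, with vehicle in blue, DKFZ-608 in red and the 4 named H209 arrays as open diamonds. BLVRB of H209 at 24 h is at 538 and 518 in the treated arrays left in and at 193 and 195 in the vehicle arrays left in.

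In H838, BLVRB ran from 651 to 1223 in all 20 arrays, and none of its treatment changes passed. The mean change over times in H838 minus that in H209 was -0.31 ± 0.27 with all arrays and -0.88 ± 0.16 without the 4 (limma's adjusted p 0.000511). For this mean over times, 0 of 9 members (1, HMOX2, at an unadjusted p under 0.05) and 0% of genes passed limma's test with all arrays. When the 4 were left out, 2 members, HMOX1 (-3.54 ± 0.14) and BLVRB, and 2.51% of genes passed.

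FTL was read at 9156 to 14093 over all arrays, on a scale that ends at 21062 in this table, and its changes were small. In H209 at 4 h vehicle had 12824, 10774 and 11219, and DKFZ-608 13277, 12236 and 10477. The groups overlapped. At 8 h vehicle had 11335 and 13012, and DKFZ-608 13940 and 11717. At 24 h vehicle had 10412, 10409 and 12391, and DKFZ-608 14093, 13809 and 9156. Vehicle replicate 3 and treated replicate 3 stood on the other arm's side.

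With all arrays FTL changed by 0.04 ± 0.12, 0.07 ± 0.14 and 0.14 ± 0.12 at 4, 8 and 24 h, none past the test. In the fit without the 4 it rose by 0.42 ± 0.10 at 24 h, 1.34-fold (limma's adjusted p 0.0208, 2 against 2), and by 0.26 ± 0.07 as the mean over times (limma's adjusted p 0.0149). Its other probe read 10093, 10234 and 12843 in the 24 h vehicle arrays and 13276, 13621 and 8767 in the 24 h treated arrays. Fitted probe by probe without the 4 arrays, that probe gave 0.40 ± 0.11 with limma's adjusted p at 0.0884, and the first gave 0.42 ± 0.10 with 0.0302. Both probes thus showed the same size, and 1 of them passed. In H838, FTL lay between 10945 and 13589 and no change passed. The difference between the lines in the mean change without the 4 arrays was -0.29 ± 0.08 and did not pass. That mean includes the 8 h comparison of 1 array against 1.

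NCOA4, the ferritin receptor, read 1969, 1899 and 2027 in H209 vehicle and 2049, 2055 and 2175 in DKFZ-608 at 4 h. The treated arrays were higher, but the change of 0.09 ± 0.08 did not pass (limma's adjusted p 0.914). In the fit without the 4 arrays it changed by -0.09 at 8 h and 0.14 at 24 h, neither past the test. Over all H209 arrays it ran from 1872 to 2272, and in H838 from 2229 to 3276.

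TFRC, the importer, did not pass in any treatment comparison. In H209 at 4 h vehicle had 3681, 3296 and 3653, and DKFZ-608 2917, 3035 and 3367. The arms overlapped by 1 array each, with a change of -0.19 ± 0.10 (limma's adjusted p 0.726). At 8 h vehicle had 3426 and 2581 and DKFZ-608 2511 and 3517, again mirrored in replicate 2. Without the 4 arrays the 8 h difference was -0.45 ± 0.13, with 1 array against 1, and did not pass. At 24 h vehicle had 3007, 3212 and 3927, and DKFZ-608 3572, 3510 and 3621. The 24 h difference without the 4 arrays was 0.19 ± 0.09, opposite in sign to that at 8 h, and did not pass.

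SLC40A1, the exporter, was at the level of the median probe in every array, from 79.0 to 115 for one probe and from 85.8 to 116 for the other, so changes of ferroportin RNA could not be resolved. ACO1, the cytosolic aconitase that doubles as an iron regulatory protein, read 739, 791 and 694 in H209 vehicle and 718, 739 and 674 in DKFZ-608 at 4 h. The arms overlapped, and its changes in H209 were -0.06 at each time with all arrays. In the fit without the 4 they were -0.06, -0.16 ± 0.12 (1 array against 1) and -0.10 ± 0.09, and none passed. In H838 it ran from 866 to 1122.

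**Figure D3:**
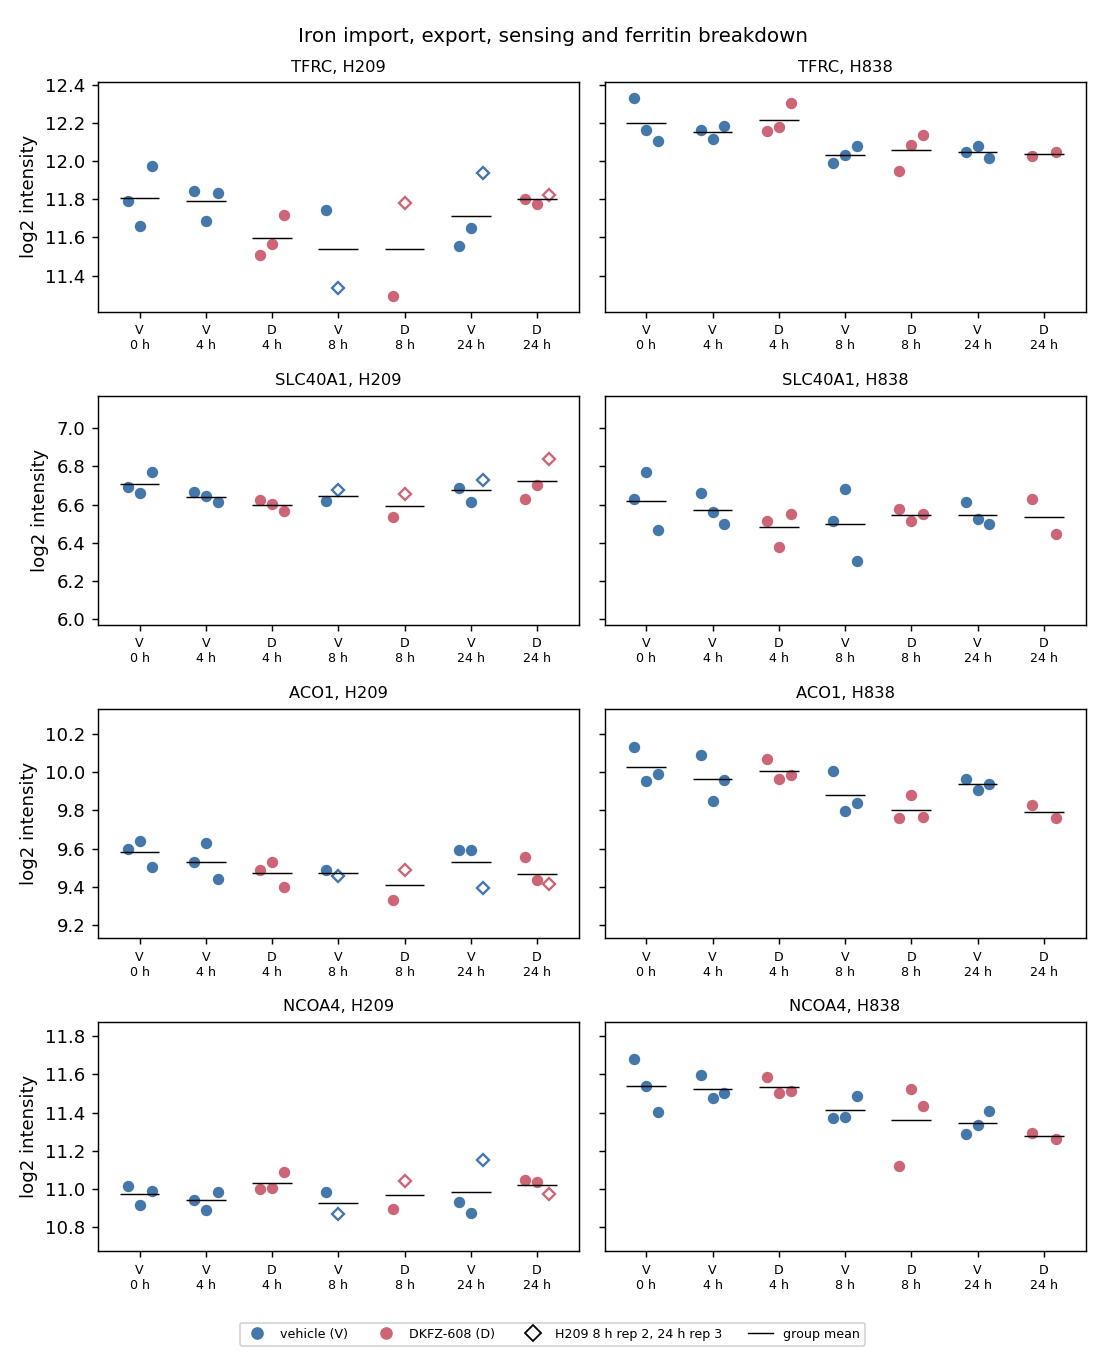
Log2 intensity (y axis) of the import, export, regulator and ferritin receptor genes in each array by treatment and time (x axis), for each line, drawn as in the plot of enzymes and storage genes. SLC40A1 stays near the median probe in all arrays, and TFRC is between 2511 and 4021 in H209.

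Counted over the members without the 4 arrays, 1 of 9 passed at 4 h against 1.88% of genes, 1 at 8 h against 1.42%, 3 at 24 h against 1.66% and 3 for the mean over times against 4.87%. HMOX1 is 1 of the members in each of these counts, and BLVRB and FTL are the others at 24 h and for the mean. At 8 h HMOX1 is the only member counted. The 4 arrays were left out in part for their HMOX1 level, so its place in the counts at 8 h, 24 h and for the mean is a description. The members' median change with all arrays was 0.03, 0.04 and 0.09 in time order, beside -0.01, -0.01 and -0.00 over all genes. In the fit without the 4 it was 0.03, -0.06 and 0.14, beside -0.01, -0.02 and -0.01. At 4 h in H209, treated and vehicle values did not overlap for 4 of 9 members, HMOX1, HMOX2 and NCOA4 above and BLVRA below, against 14.2% of genes.

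**Figure D4:**
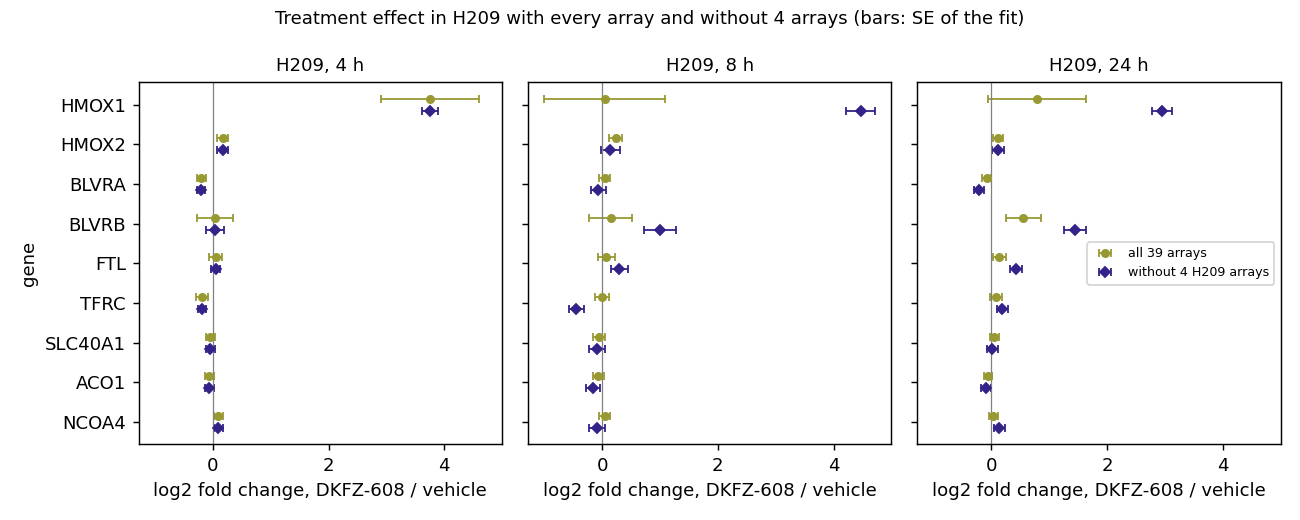
Log2 fold change of DKFZ-608 over vehicle in H209 (x axis, bars are the SE of the fit) for each member (y axis) at 4, 8 and 24 h, with all 39 arrays (olive circles) and without the 4 H209 arrays (indigo diamonds). HMOX1 is at 3.76 at 4 h in both fits and at 0.04 and 4.47 at 8 h, and BLVRB is at 0.55 and 1.44 at 24 h.

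In H838 no member passed at any time. Limma called 0 of 9 members and 0% of genes at 4, 8 and 24 h and for the mean with all arrays, where an unadjusted p under 0.05 was found for 493, 638, 562 and 547 genes and 0 members. With the H838 arrays alone 0 of 9 members passed, against 0.0162%, 0.0269%, 0.0108% and 0.0216% of genes. The 8 members other than HMOX1 changed by -0.19 to 0.07 on the log2 scale. Treated and vehicle values did not overlap for 0 of 9 members at 4 h (8.06% of genes), for 1 at 8 h, HMOX2 below (7.51%), and for 1 at 24 h, ACO1 below (18.4%).

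The lines themselves differed in 5 of 9 members at 0 h, against 45.8% of genes, so the share is near the background. H838 was higher in 4 (21.3% of genes were higher) and lower in 1 (24.5% were lower). BLVRB read 170, 197 and 211 in H209 and 764, 968 and 981 in H838. Its level was 2.23 ± 0.31 higher in H838, 4.69-fold (limma's adjusted p 1.65e-07). Over all times the lowest H838 array, at 651, was below only 1 H209 array, the 24 h vehicle replicate 3 at 669.

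NCOA4 read 2068, 1929 and 2032 in H209 and 3276, 2977 and 2706 in H838 at 0 h, higher by 0.57 ± 0.08 (limma's adjusted p 2.62e-07). ACO1 read 776, 797 and 727 against 1122, 993 and 1017, higher by 0.44 ± 0.07 (limma's adjusted p 3.45e-06). TFRC read 3548, 3238 and 4021 against 5150, 4591 and 4400, higher by 0.39 ± 0.10 (limma's adjusted p 0.00196). For these members no array of one line reached the other at 0 h, and the share of all genes without overlap was not counted there. BLVRA went the opposite way to BLVRB: it read 1052, 1042 and 1079 in H209 and 778, 861 and 894 in H838, a difference of -0.33 ± 0.08 (limma's adjusted p 0.000821). The lines thus carried opposite differences in the pair of biliverdin reductases.

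At 0 h, HMOX1 differed by 0.03 ± 0.85, FTL by 0.19 ± 0.12, HMOX2 by 0.07 and SLC40A1 by -0.09, none past the test. FTL read 12121, 12296 and 9886 in H209 and 13519, 13314 and 12055 in H838. The lines overlapped.

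**Figure D5:**
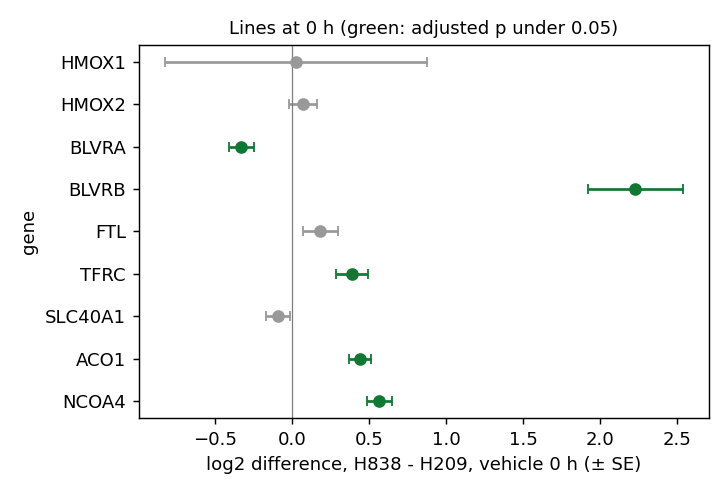
Log2 difference of H838 minus H209 in vehicle at 0 h (x axis, bars are the SE of the fit over all arrays) for each member (y axis), in green where limma's adjusted p was under 0.05. BLVRB is at 2.23, NCOA4, ACO1 and TFRC are between 0.39 and 0.57, and BLVRA is at -0.33.

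Time in vehicle alone moved no member past the test. In H209, vehicle at 24 h against 0 h gave 0 of 9 members by limma (0 at an unadjusted p under 0.05) and 0.0162% of genes. In H838 it gave 0 of 9 members (1, NCOA4, at an unadjusted p under 0.05) and 1.89% of genes. NCOA4 there changed by -0.20 ± 0.08, with limma's adjusted p at 0.297. In H209, BLVRB was 0.61 ± 0.31 higher with all arrays and 0.02 higher without the 4, since the vehicle array at 669 is one of them.

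A list of 48 other genes of haem and iron metabolism was read beside the members, and 42 were tested. Of the rest, 5 are not analysed here and CP did not pass the filter. With all arrays 0 of the 42 passed limma's test in H209 at 4, 8 or 24 h, with 4, 0 and 1 at an unadjusted p under 0.05, and 0 passed in H838, with 3, 1 and 0. The median change of the list in H209 at 4 h was 0.01, beside -0.01 over all genes.

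Without the 4 H209 arrays, the 8 h comparison in H209 is 1 array against 1, so its errors are borrowed from the spread of the other groups and it has no replicate check of its own. There FECH, the ferrochelatase that inserts iron into haem, was higher by 0.76 ± 0.15 (limma's adjusted p 0.00354) and SLC48A1, a haem transporter, by 0.68 ± 0.16 (limma's adjusted p 0.0208). These are 2 of 42 list genes, against 1.42% of all genes. At 24 h, with 2 arrays against 2, FECH rose by 0.44 ± 0.11 (limma's adjusted p 0.0214) and ABCB6, a porphyrin transporter, by 0.47 ± 0.10 (limma's adjusted p 0.00732). These are 2 of 42, against 1.66% of all genes. With all arrays FECH changed by 0.01 ± 0.19 and 0.16 ± 0.16, SLC48A1 by 0.10 ± 0.15, and ABCB6 by 0.18 ± 0.14. For the mean over times without the 4 arrays, FECH (0.50), SLC48A1 (0.41) and ABCB6 (0.40) passed upward and GLRX5, a glutaredoxin of iron-sulphur cluster assembly, downward (-0.18), 4 of 42 against 4.87% of all genes. The difference between the lines in the mean change was -0.60 for FECH and -0.42 for ABCB6 without the 4 arrays. That mean includes the 8 h comparison of 1 array against 1. With all arrays 0 of the 42 and 0% of all genes passed this comparison.

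At 0 h the lines differed in 25 of the 42, with 14 higher and 11 lower in H838, against 45.8% of all genes differing, 21.3% higher and 24.5% lower. The 6 of largest size were all higher in H838. They were the ferric reductase CYBRD1 (3.17 ± 0.11) and the STEAP family members STEAP1 (2.17 ± 0.08) and STEAP2 (2.02 ± 0.09). The transporter FLVCR2 (1.95 ± 0.11) and the metal importers SLC39A14 (1.77 ± 0.09) and SLC39A8 (1.65 ± 0.12) were the others. Of the 11 import and reduction genes tested, 6 were higher in H838 and 0 were lower. Of the 8 genes of mitochondrial iron and iron-sulphur clusters, 2 were higher and 4 lower. In H838 vehicle, STEAP3, an endosomal ferric reductase, fell by 0.49 ± 0.11 from 0 to 24 h and was the 1 list gene to pass there.

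Over the 19 H209 arrays, the genes whose log2 intensity followed HMOX1 most closely were MT1M (Pearson r 0.99), MT2A (0.98), MT1H (0.98), MT1X (0.98) and ERRFI1 (0.97). MT1M, MT2A, MT1H and MT1X are metallothioneins, near-identical copies whose probes may read each other's transcripts, and ERRFI1 is a feedback inhibitor of EGFR. Among the members FTL had r 0.64 and rank 605 of 18554 genes, and BLVRB 0.50 and rank 1192. TFRC had -0.54, BLVRA -0.52 and ACO1 -0.52. These H209 arrays fall into a low and a high level of HMOX1, and r is given as a description without a test. Over the 20 H838 arrays the SD of HMOX1 was 0.20, against 1.93 in H209, and the closest genes were SLC38A7 (0.76), ADA (0.75), CFAP99 (0.74), LINC00111 (0.73) and PDE7A (0.73). None of the members was among the 5 closest in either line.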

How the data were processed

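RNA was column-purified, amplified to biotin-labelled cRNA and hybridised, per the labels' protocols. The deposited values are probe intensity on a linear scale in 1 table; how the authors normalized them is not given in the sources used here, and the table was kept as deposited. Intensities below percentile 1 (75.8) were set to it, log2 was taken, and probes above the table median (93.6) in at least 2 arrays were kept (42925 of 48107; 20 probes with empty cells left out). Of the table's probes, 30103 had 1 gene symbol, 8 several and 17976 none here. A gene was represented by its brightest probe, giving 18555 genes. Each was fitted with limma 3.58.1 (R 4.3.3) as 14 group means with 25 residual degrees of freedom (21 without the 4 H209 arrays). A gene passed where its Benjamini-Hochberg adjusted p was under 0.05. Changes are log2 of intensity, with background not removed, so folds of dim probes are understated. The change at 24 h minus that at 4 h was added after the data were seen.

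The members, the list of other genes, the tests and the 4 arrays were chosen with earlier results of these data known. All members are described in each comparison; of the other genes, those past the test are named, at most 6 per comparison by size, with the 5 genes nearest to HMOX1 in each line. Replicate numbers are shared between groups. The deviations of same-numbered H209 arrays at 4 h correlated (0.48, 0.14 and 0.55), but over all 16 pairs r ran from -0.59 to 0.55 with 8 above 0.1. The -0.59 is the same value in both H209 pairs at 8 h, since with 2 arrays per group the deviations mirror each other. The H209 groups at 8 and 24 h also hold the 4 arrays, so these pairs say little about pairing. Scripts were tested on simulated data. Alternatives covered the normalization, background, floor, filter, probe rule, variance prior, replicate block, time label, arrays of 1 line, the 4 arrays and each array in turn.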

Additional observations from a re-analysis of the deposited data

Results flagged for a closer look

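In the fit without the 4 H209 arrays, 2 members passed a test of the difference between the lines in the response to DKFZ-608. The shares of all genes that passed are given with these differences above. For HMOX1 the change in H838 minus that in H209 was -3.56 on the log2 scale at 4 h and -3.54 for the mean over times. For BLVRB it was -0.88 for the mean over times. The arrays were left out in part for their HMOX1 level, so these tests are not independent evidence, and with all arrays neither gene passed. HMOX2 at 8 h was higher in both treated H209 arrays than in both vehicle arrays (0.23). It was lower in all treated than in all vehicle H838 arrays (-0.16). Neither change passed the test, and the difference between the lines at 8 h was not tested. In H838 at 8 h the arms did not overlap for 7.51% of all genes, and this share was not counted for H209. The H209 groups at 8 h include the replicate 2 arrays, which are among the 4. HMOX2 was also near the median of all probes in every array, so these opposite directions are a description only. The search for a single array far from its group needs at least 4 arrays, and no group has that many.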

How the results depend on the processing

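Over 51 settings and 2637 values of members, 2617 kept their direction where past the test and their side of the threshold, 7 lost a call, 13 gained one and 0 calls turned sign; 148 values past no test changed sign. The members called in H209 at 4 h went from 1 to 0 with the H209 arrays alone. Without the 4 H209 arrays the members called went from 0 to 1 at 8 h, to 3 at 24 h and to 3 for the mean over times, from 0 to 1 and 2 for the line difference at 4 h and for the mean, and from 0 to 1 for the 24 h minus 4 h change. Leaving out 1 array at a time gave 0 to 0 members in H209 at 4 h, and 0 to 1 for the mean over times, where HMOX1 passed without vehicle 8 h replicate 2 (2.24, limma's adjusted p 0.0491) and without DKFZ-608 8 h replicate 2 (2.30, limma's adjusted p 0.0378). The cause of these changes was not tested, beyond the values of the arrays named. The replicate block changed no call: HMOX1 in H209 at 4 h stayed at 3.76 ± 0.86, limma's adjusted p 0.0220, with 1 member called. Quantile normalization, normexp background (HMOX1 4.00, limma's adjusted p 0.0373), no floor, no filter, the mean of probes, single probes, a variance trend, the time label and the 4 h arrays alone (chosen after seeing the data) changed no call of a member. SLC40A1 and HMOX2 lie near the median of all probes, which limits what can be seen of them.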
